A study of Mus musculus with 19 samples.

Results

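The genes described here are 10 genes of the calcium store of the reticulum: the 3 sarcoplasmic and endoplasmic reticulum calcium pumps (SERCA; Atp2a1, Atp2a2 and Atp2a3), 2 small pump inhibitors (sarcolipin, Sln, and phospholamban, Pln), the 3 ryanodine receptors (Ryr1, Ryr2 and Ryr3) and the 2 calsequestrins (Casq1 and Casq2). They were picked out by gene symbol, as a list of some parts of this store, and are 10 of the 55740 genes named in the series. All 10 were listed for the 7 tissues and for brown adipose tissue (BAT), and 9 for inguinal white adipose tissue (iWAT), where Sln was not among the 13756 genes listed.

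SERCA pumps use ATP to move calcium from the cytosol into the reticulum, where calsequestrin binds it, and ryanodine receptors let it out again. In striated muscle this cycle drives contraction and relaxation, and sarcolipin can uncouple ATP use by the pump from calcium transport, which releases heat. In beige fat, a calcium cycle through the SERCA2b form of the Atp2a2 product and through RyR2 is known as a source of heat that does not need Ucp1. Musclin (gene symbol Ostn) is a peptide secreted by skeletal muscle.

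The series measured mRNA by sequencing in 19 libraries from male mice. Wild-type (WT) C57BL/6J mice gave 1 library each of brain, heart, small intestine, liver, brown adipose, white adipose and tibialis anterior (TA) muscle, so levels among these tissues have no replicate error. The other 12 libraries came from 2 depots, iWAT and BAT, after 1 week at 8 °C, with 3 WT and 3 MCK-Musclin libraries per depot from mice of 5 months. The MCK-Musclin transgene places the full Musclin coding sequence behind the promoter of muscle creatine kinase, a striated-muscle enzyme, and was backcrossed to C57BL/6J. Several founder lines were made, and which one was sequenced is not given in the sources used here. The labels number the libraries of a group without naming animals, so each p-value measures the spread between these libraries.

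Values are FPKM, fragments per kilobase of transcript scaled to the mapped fragments of the library, so levels of different genes can be compared per length. The adipocyte genes Adipoq and Plin1 were above 259 FPKM in all 12 adipose libraries, and Ucp1, the uncoupling protein of thermogenic fat, was between 2778 and 3792 FPKM in BAT and between 2.91 and 346 FPKM in iWAT. In BAT, Ostn was listed at 0 in every WT library and at 37.9, 31.6 and 30.3 FPKM in the MCK-Musclin libraries. In iWAT it was at 0, 0 and 0.225 FPKM in WT and at 0, 5.17 and 4.21 FPKM in MCK-Musclin, and since the transgene is driven in muscle and the library labelled MCK-Musclin 1 held little muscle RNA, Ostn cannot check the label of that library. Skeletal muscle transcripts were found in both depots: the summed FPKM of 16 fast-fibre markers was 50.4, 924 and 5099 in WT iWAT and 50.2, 224 and 239 in MCK-Musclin iWAT, and 660, 910 and 587 in WT BAT and 2089, 954 and 1351 in MCK-Musclin BAT. The depth behind these values is unknown. Steps among low FPKM values put the BAT libraries at 0.89 to 1.11 of the depth of the first WT library, and the iWAT libraries at 0.714 to 1.06. Both are weakly supported, with at most 9.19% of genes at the value given in BAT and only 14 to 32 genes to compare in iWAT.

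The start-site regions of Atp2a1, Casq1 and Ryr1 are shown first, because these 3 members were highest in skeletal muscle and passed the cutoff in BAT. RefSeq promoter sequences (build GRCm38.p6) were matched for 7 of the 10 members. The 250 bases before the RefSeq start site are given 5′ to 3′ on the strand of the gene, and capitals mark the E-box CAGCTG, the letters that myogenic helix-loop-helix factors such as MyoD are known to bind. The gene bounds given further on come from the GENCODE annotation, which places the starts of these 3 genes elsewhere. By those bounds the last bases of the Atp2a1 and Ryr1 stretches lie inside the gene, so positions hold for the RefSeq start sites only.
Atp2a1 (chr7:126463074-126463323, minus strand): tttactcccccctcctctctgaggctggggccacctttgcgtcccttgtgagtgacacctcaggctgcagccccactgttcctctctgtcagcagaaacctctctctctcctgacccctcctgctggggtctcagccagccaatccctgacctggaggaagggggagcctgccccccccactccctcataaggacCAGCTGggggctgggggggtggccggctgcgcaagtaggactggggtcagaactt
Casq1 (chr1:172219896-172220145, minus strand): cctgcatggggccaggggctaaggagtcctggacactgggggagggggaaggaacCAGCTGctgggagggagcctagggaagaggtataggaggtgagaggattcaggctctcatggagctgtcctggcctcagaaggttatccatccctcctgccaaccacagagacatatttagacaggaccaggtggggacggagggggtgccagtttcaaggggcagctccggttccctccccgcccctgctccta
Ryr1 (chr7:29125152-29125401, minus strand): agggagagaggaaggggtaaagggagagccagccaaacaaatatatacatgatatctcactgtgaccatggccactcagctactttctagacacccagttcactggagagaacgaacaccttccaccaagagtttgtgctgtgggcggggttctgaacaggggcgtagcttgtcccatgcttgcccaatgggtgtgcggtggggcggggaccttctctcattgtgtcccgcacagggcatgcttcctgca
Atp2a1 held the letters CAGCTG from position -55 relative to the start site and Casq1 from position -195, whereas the Ryr1 stretch held none. On windows of 300 bases (250 before and 50 after the start site), searched on both strands, CAGCTG was in 16.1% of 27025 promoters, and among the 7 matched members it was in Atp2a1, Casq1 and, at position 8, Pln. The motif TATAAA (14.2% of promoters) was found in Pln, and neither the MEF2 site (0.566%) nor the CArG box (1.57%) was found in any of the 7. No hit overlapped another. A match is a description of these letters only.

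The 3 pump genes divided the tissues among them. Atp2a1, the fast-muscle pump (GRCm38, chr7:126445858-126463108, minus strand), was at 5172 FPKM in TA muscle, 29.2 in brown adipose, 11.3 in white adipose, 2.16 in brain, 1.04 in heart, 0.349 in liver and 0.114 in small intestine. TA muscle held 99.15% of its summed FPKM over the 7 tissues, at 177 times the next tissue. Atp2a2, the pump of heart, slow muscle and non-muscle cells (chr5:122453513-122502225, minus strand), was at 1709 FPKM in heart, 111 in brain, 48.3 in small intestine, 35.2 in brown adipose, 24.3 in white adipose, 19.8 in liver and 9.28 in TA muscle. It was the only one of the 10 members above 1 FPKM in all 7 tissues. Atp2a3, a pump known from blood, endothelial and epithelial cells (chr11:72961169-72993044, plus strand), was at 38.0 FPKM in small intestine, 13.4 in white adipose, 2.85 in brown adipose, 2.26 in heart, 2.05 in brain, 0.765 in TA muscle and 0.469 in liver. With 1 library per tissue, no pair of neighbours in these orders could be tested.

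The make-up of the pump transcripts therefore differed by tissue. Atp2a1 was 99.81% of summed SERCA FPKM in TA muscle and Atp2a2 was 99.81% in heart. In white adipose Atp2a1, Atp2a2 and Atp2a3 made up 23.13%, 49.56% and 27.31%, and in brown adipose 43.41%, 52.36% and 4.231%.

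**Figure D1:**
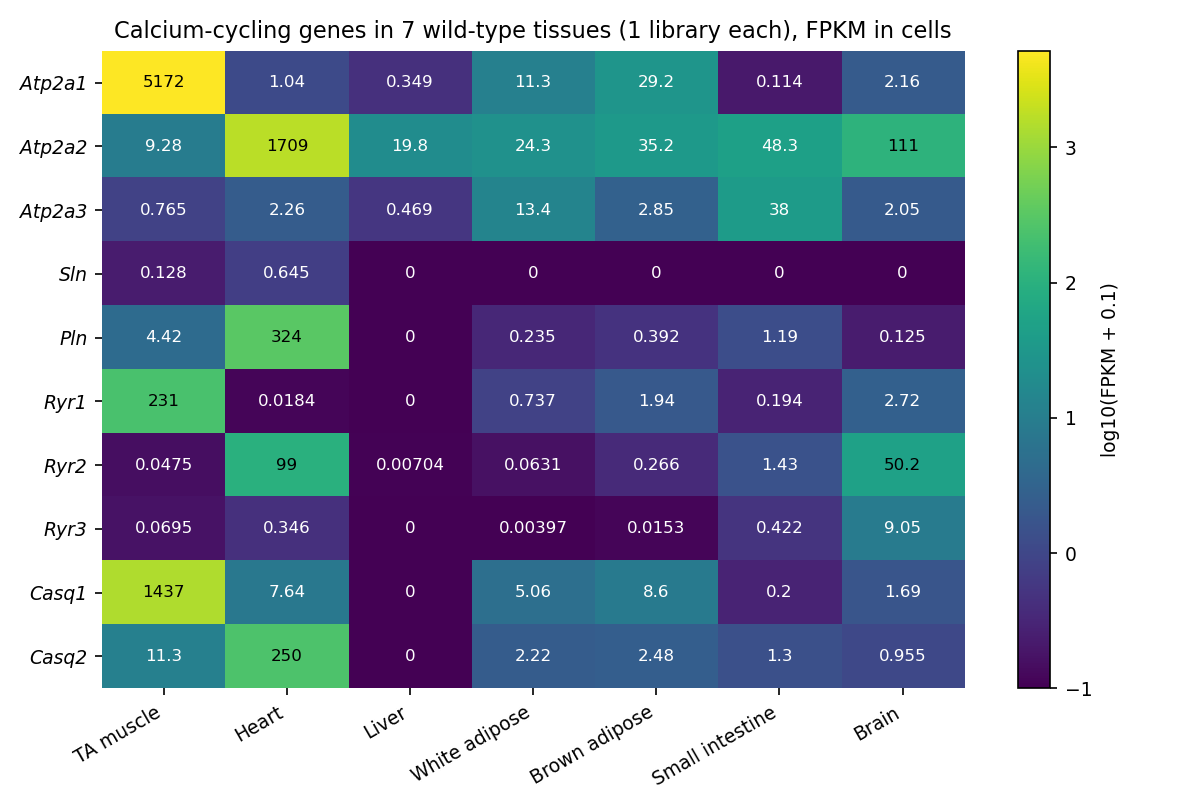
FPKM of the 10 genes (rows) in 7 wild-type tissues (columns), 1 library each, with the value written in each cell and the colour giving log10(FPKM + 0.1). Atp2a1, Ryr1 and Casq1 are highest in TA muscle, Atp2a2, Sln, Pln, Ryr2 and Casq2 in heart, Atp2a3 in small intestine and Ryr3 in brain.

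Both inhibitors were highest in heart, at very different levels. Pln, which holds back the cardiac pump until it is phosphorylated (chr10:53337667-53345987, plus strand), was at 324 FPKM in heart, 4.42 in TA muscle, 1.19 in small intestine and below 0.4 in white adipose, brown adipose and brain, and was listed at 0 in liver. Sln (chr9:53850164-53854560, plus strand) was at 0.645 FPKM in heart and 0.128 in TA muscle and was listed at 0 in the other 5 tissues. Other small regulators of the pump were also low: myoregulin (Mrln), a muscle inhibitor, was at 11.7 FPKM in TA muscle, and Strit1 (DWORF), which counters phospholamban, was at 1.44 FPKM in heart and at 0 elsewhere.

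Each release channel was highest in a different tissue, and the calsequestrins split between skeletal muscle and heart. Ryr1, the skeletal muscle channel (chr7:29003344-29125179, minus strand), was at 231 FPKM in TA muscle, 2.72 in brain, 1.94 in brown adipose, 0.737 in white adipose, 0.194 in small intestine and 0.0184 in heart, and was listed at 0 in liver. Ryr2, the cardiac channel (chr13:11553102-12106945, minus strand), was at 99.0 FPKM in heart and 50.2 in brain, and at 1.43 in small intestine, 0.266 in brown adipose, 0.0631 in white adipose, 0.0475 in TA muscle and 0.00704 in liver. Ryr3 (chr2:112631355-113217096, minus strand) was highest in brain, at 9.05 FPKM, and below 0.5 FPKM in each of the other 6 tissues. Casq1, the calsequestrin of fast muscle (chr1:172209894-172219868, minus strand), was at 1437 FPKM in TA muscle, 8.60 in brown adipose, 7.64 in heart and 5.06 in white adipose. Casq2, the cardiac calsequestrin (chr3:102086415-102146514, plus strand), was at 249.7 FPKM in heart, 11.3 in TA muscle, 2.48 in brown adipose and 2.22 in white adipose. Both calsequestrins were below 2 FPKM in small intestine and brain and listed at 0 in liver.

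All 10 genes are protein coding, and the libraries were aligned without strand. Exons of Atp2a1 overlap Rabep2, those of Atp2a2 Gm43361, those of Pln Cep85l and Gm47644, those of Ryr1 Gm26604 and Gm44408, those of Ryr3 Aven and those of Casq1 Gm17224, each on the opposite strand, so reads in the shared bases cannot be assigned to one gene. Atp2a3, Sln, Ryr2 and Casq2 share exons with no other annotated gene.

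Other genes followed the members across the 7 tissues. Among 14692 genes with a mean of at least 1 FPKM, the Pearson correlation of log2(FPKM + 1) with Atp2a1 was highest for the fast myosin heavy chain Myh1 (0.9965), followed by Mybpc1 and Myh4, and that with Casq1 was highest for the fast myosin-binding protein Mybpc2 (0.9957). Ryr1 was most like Jsrp1 (0.9966) and Stac3 (0.9894), 2 proteins of the triad, the junction at which Ryr1 sits. Pln was most like Nppa (0.9903) and Casq2 most like Myl2 (0.9875), an atrial and a ventricular gene. For Ryr2 the nearest genes were Gpr22 (0.9968), Tesc and Kcnip2, and for Ryr3 Lrrc55 (0.9992), Ptprn and Ccdc184. Atp2a2 had weaker neighbours, with Pde1c (0.9659) first, and Atp2a3 was most like Cnn1 (0.9953), Traf3ip3 and Map4k1. Sln, although low in every tissue, was most like Mybpc3 (0.9988). These values describe 7 libraries, and a single high tissue sets most of each.

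Of the 49 genes in 4 further calcium lists, 18 were highest in TA muscle, 10 in brain, 10 in small intestine, 4 in brown adipose, 3 in white adipose, 3 in heart and 1 in liver. The triad and excitation-contraction coupling list was the most muscle-bound, with 10 of its 15 genes highest in TA muscle, among them Trdn (triadin, which anchors calsequestrin to the channel; 1045 FPKM), Jsrp1 (296), Cacna1s (the voltage sensor; 161) and Stac3 (149.9). Hrc, a calcium-binding protein of the store, was at 1117 FPKM in TA muscle and 1055 in heart. The other family of release channels, the 3 IP3 receptors, had its highest sum in brain, at 96.7 FPKM, of which Itpr1 was 93.3 FPKM. Itpr2 was highest in brown adipose and Itpr3 in small intestine, at 18.9 FPKM. In brown adipose Itpr2 was at 38.0 FPKM and Itpr1 at 28.3 FPKM, and the 3 IP3 receptors together were 30.61 times the 3 ryanodine receptors. This ratio was 36.4 in white adipose, 14.79 in small intestine and 3072 in liver, where the ryanodine receptors summed to only 0.00704 FPKM. It was 1.561 in brain, 0.129 in heart and 0.01564 in TA muscle.

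In BAT after cold, the muscle-type members were higher in MCK-Musclin than in WT libraries. Atp2a1 was at 28.2, 42.1 and 25.9 FPKM in the 3 WT libraries and at 78.9, 45.0 and 51.2 FPKM in the 3 MCK-Musclin libraries. Every MCK-Musclin library was above every WT library, the highest being MCK-Musclin 1. The log2 fold change was 0.83 (SE 0.245; limma p = 0.0104, adjusted p = 0.929; exact permutation p = 0.1), from 32.1 ± 8.74 FPKM in WT (SD, n = 3). Casq1 was at 8.27, 9.76 and 5.23 FPKM in WT and at 27.2, 12.2 and 12.4 FPKM in MCK-Musclin. These groups did not overlap either, and the log2 fold change was 1.00 (SE 0.327; limma p = 0.0170, adjusted p = 0.968; exact permutation p = 0.1). Ryr1 was at 1.80, 3.02 and 1.56 FPKM in WT and at 6.38, 2.86 and 3.35 FPKM in MCK-Musclin. Here WT 2 lay above MCK-Musclin 2, and the log2 fold change was 0.70 (SE 0.276; limma p = 0.0367, adjusted p = 0.968; exact permutation p = 0.2).

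These 3 genes were the members that passed the cutoff for BAT, an unadjusted p below 0.05 with a log2 fold change beyond 0.3, and none had an adjusted p below 0.05. Of the 10 members, 6 had a mean of at least 1 FPKM and were tested. Among all 10893 genes tested, 1.85% were called higher and 2.15% lower at this cutoff, and in 4.38% the groups did not overlap with MCK-Musclin higher and in 5.63% with MCK-Musclin lower. The exact permutation test of 3 against 3 libraries cannot give a two-sided p below 0.1. Without WT 3 the log2 fold changes were 0.70 for Atp2a1, 0.57 for Ryr1 and 0.77 for Casq1, and Atp2a1 alone passed the cutoff. Without MCK-Musclin 1 they were 0.60, 0.42 and 0.64, and Ryr1 no longer passed. Ryr1 also missed the cutoff without WT 1 (0.64), with no filter on low values and with a replicate block.

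The other members of BAT gave no such difference at the cutoff. Atp2a2, the main pump of non-muscle cells, was at 34.0, 35.2 and 34.5 FPKM in WT and at 43.8, 37.9 and 31.7 FPKM in MCK-Musclin. The groups overlapped (log2 fold change 0.11, SE 0.123; limma adjusted p = 0.968), and the highest library was 1.381 times the lowest. Atp2a3 stayed between 2.22 and 2.83 FPKM over the 6 libraries, with a log2 fold change of -0.03 that turned to 0.09 when libraries were centred on adipocyte markers. Casq2 was at 1.56, 0.721 and 0.379 FPKM in WT and at 1.46, 1.42 and 0.478 FPKM in MCK-Musclin.

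The members below 1 FPKM were not tested in the main fit. Ryr2 was at 0.114, 0.0636 and 0.183 FPKM in WT and at 0.286, 0.357 and 0.243 FPKM in MCK-Musclin, higher in all 3, and with no filter on low values limma gave p = 0.0109 (adjusted p = 0.908; exact permutation p = 0.1) for a log2 difference of 0.21. Pln was at 0.269, 0.161 and 0.140 FPKM in WT and at 0.101, 0.0214 and 0.0732 FPKM in MCK-Musclin, lower in all 3 (limma p = 0.0246, adjusted p = 0.908; exact permutation p = 0.1; log2 difference -0.16). Such levels are small fractions of those in heart. Sln, the muscle inhibitor tied to heat production, was at 0.0399, 0.0716 and 0.230 FPKM in WT and at 1.48, 0.269 and 0.0785 FPKM in MCK-Musclin. One library, MCK-Musclin 1, stood above the rest for Sln, and the others overlapped. Ryr3 was at most 0.0259 FPKM.

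**Figure D2:**
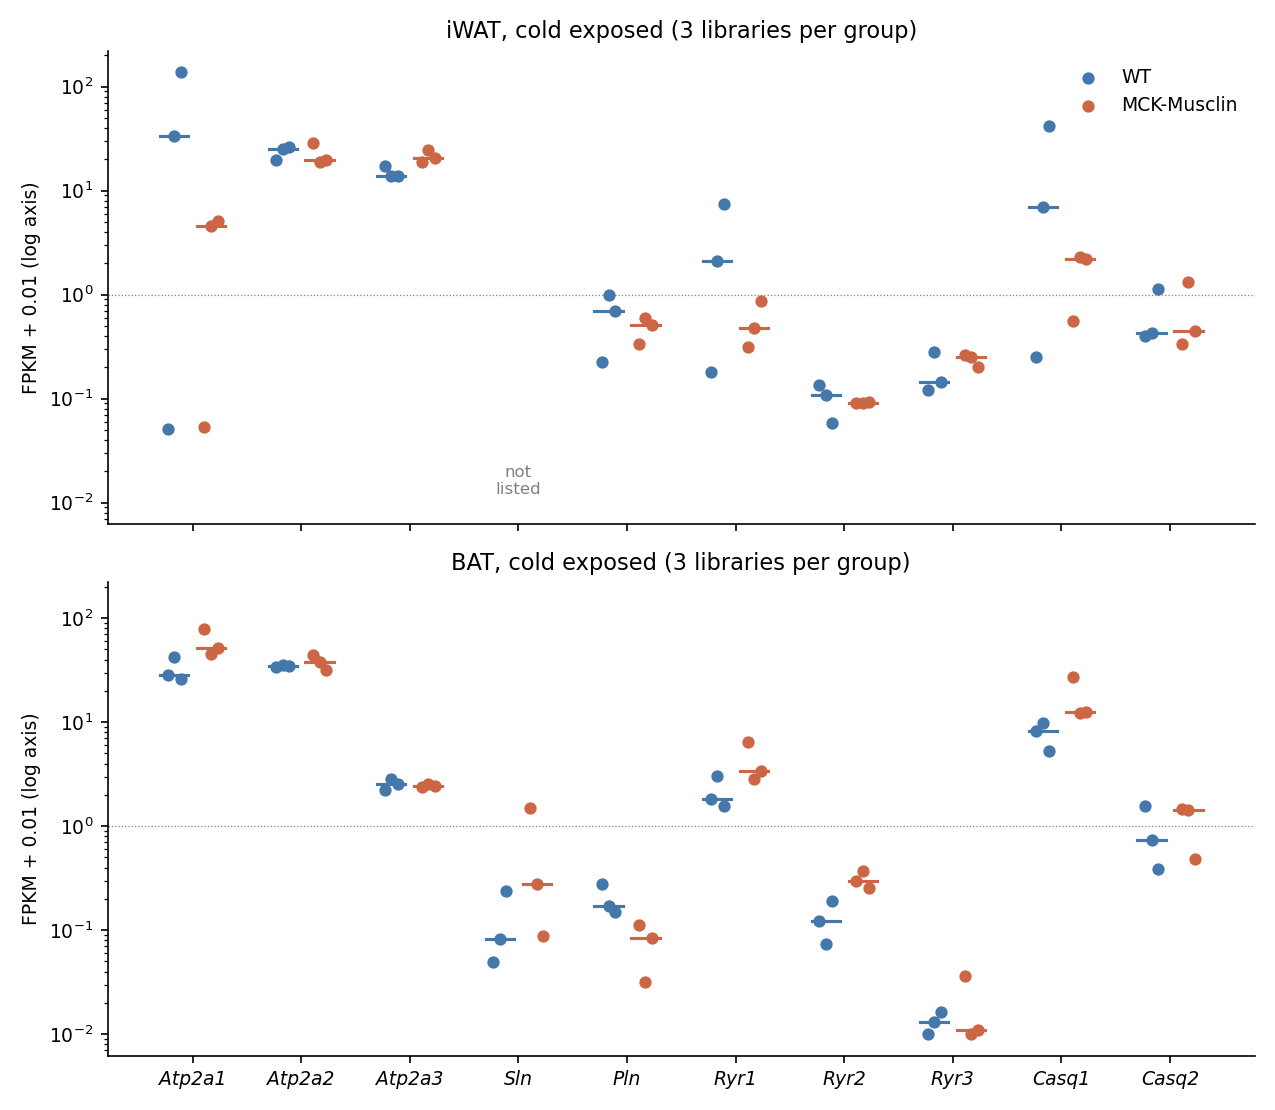
FPKM + 0.01 (log axis) of each member in the 6 iWAT (top) and 6 BAT (bottom) libraries, with WT in blue, MCK-Musclin in orange and a bar at each group's median; the dotted line is at 1. Atp2a1, Ryr1 and Casq1 spread widely in iWAT and sit higher in MCK-Musclin BAT, while Atp2a2 keeps within a narrow range in both depots.

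Skeletal muscle markers moved with these members in BAT. All 16 fast-fibre markers, a list that holds none of the members, were higher in MCK-Musclin, 14 of them at the cutoff. Of all genes tested in BAT, 1.85% were called higher. The median log2 fold change of the markers was 0.87 against -0.01 over all genes tested. Their summed FPKM ranged from 587 to 910 in WT and from 954 to 2089 in MCK-Musclin, highest in MCK-Musclin 1, the library that was also highest for 6 of the 10 members. The defining fast myosin Myh4 was at 91.8, 125 and 73.5 FPKM in WT and at 221, 130.4 and 165 FPKM in MCK-Musclin, whereas cardiac markers summed to at most 1.75 FPKM, with Nppa and Myl7 at 0 in all 6 libraries.

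Set against the summed FPKM of 34 skeletal muscle markers in the same library, Atp2a1, Casq1 and Ryr1 did not separate the genotypes in BAT. Atp2a1 per 1000 FPKM of markers was 33.03, 37.47 and 35.63 in WT and 30.19, 37.99 and 32.49 in MCK-Musclin, and 32.82 in TA muscle. The 2 groups overlapped and the TA value lay inside their range. Casq1 per 1000 FPKM was 9.693, 8.697 and 7.184 in WT and 10.4, 10.27 and 7.889 in MCK-Musclin, and 9.119 in TA muscle. Ryr1 per 1000 FPKM was 2.112, 2.691 and 2.148 in WT and 2.44, 2.416 and 2.126 in MCK-Musclin, all above the 1.465 of TA muscle. Atp2a2 was between 16.77 and 47.37 per 1000 FPKM in BAT and 0.05885 in TA muscle. Atp2a3 and Pln did separate on this scale, being lower in MCK-Musclin, with Atp2a3 between 2.52 and 3.471 in WT and between 0.9165 and 2.127 in MCK-Musclin, and Pln between 0.1433 and 0.3154 and between 0.0181 and 0.04647. The marker sum in the denominator was itself higher in MCK-Musclin. With the fast-fibre list alone as the denominator, Atp2a1 was between 37.78 and 47.12 in BAT and 34.39 in TA muscle, again with overlapping genotypes. The BAT and 7-tissue tables were normalised separately, but the scale of a library cancels in a ratio within it.

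**Figure D3:**
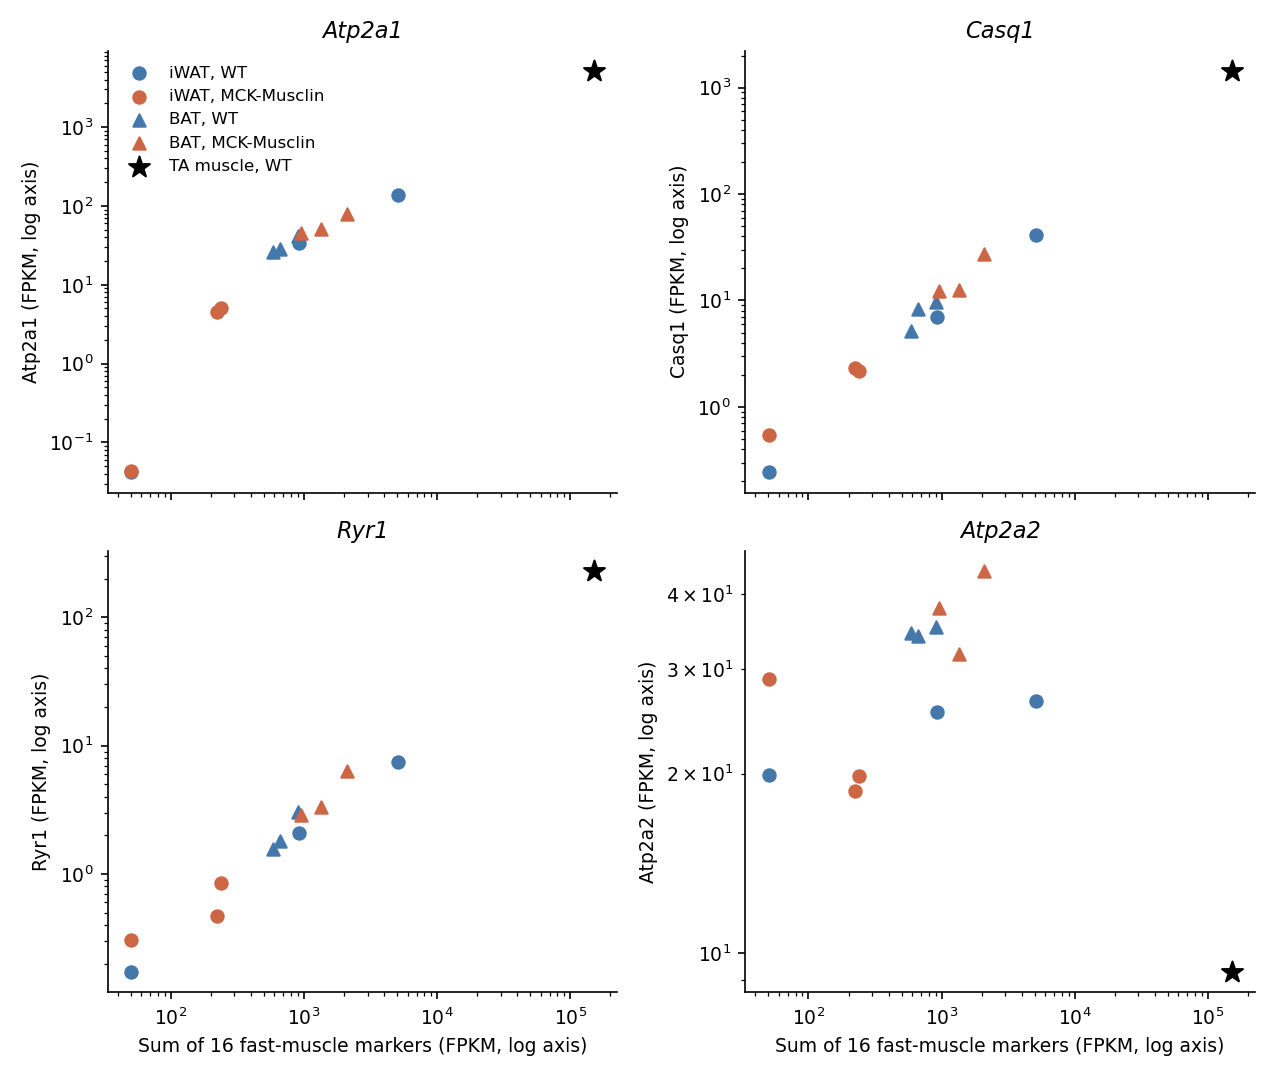
FPKM of Atp2a1, Casq1, Ryr1 and Atp2a2 (vertical, log axis) against the summed FPKM of 16 fast-muscle markers (horizontal, log axis) in the iWAT (circles) and BAT (triangles) libraries, with WT in blue, MCK-Musclin in orange and the TA muscle library as a black star. Atp2a1, Casq1 and Ryr1 climb with the marker sum toward the TA library, while Atp2a2 is lowest there, at 9.28 FPKM.

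In iWAT the same 3 members varied far more among libraries than between genotypes. Atp2a1 was at 0.0416, 33.7 and 137.5 FPKM in WT and at 0.0434, 4.55 and 5.11 FPKM in MCK-Musclin, a 3309-fold range. The first library of each genotype was near 0 and WT 3 was far above the rest. The log2 fold change was -2.38 (SE 1.67; limma adjusted p = 0.515), and the exact permutation p was 0.4. Casq1 was at 0.242, 7.00 and 41.6 FPKM in WT and at 0.547, 2.30 and 2.17 FPKM in MCK-Musclin (log2 fold change -1.57, SE 1.13; limma adjusted p = 0.523). Ryr1 was at 0.171, 2.11 and 7.42 FPKM in WT and at 0.305, 0.466 and 0.857 FPKM in MCK-Musclin (log2 fold change -1.04, SE 0.628; limma adjusted p = 0.450). For both genes WT 1 was the lowest library and WT 3 the highest, so the groups overlapped.

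Without WT 1, Atp2a1, Casq1 and Ryr1 all passed the iWAT cutoff on the low side, with log2 fold changes of -4.40, -2.87 and -1.74. Without WT 3, the log2 fold change was -0.87 for Atp2a1 and -0.32 for Casq1, and Ryr1 fell below the mean FPKM required for testing. All of these genes are also in a set that the study drew from these same iWAT libraries for being lower in MCK-Musclin, so that list is not separate evidence of direction. The study's calls came from a DESeq2 Wald test. The limma test on log2(FPKM + 1) used here is another measure, and under it none of these genes passed in the main fit.

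The spread of these members followed the muscle markers of each library. Over the 6 iWAT libraries, the Pearson correlation of log2(FPKM + 1) with the summed fast-fibre markers was 0.997 for Atp2a1, 0.989 for Casq1 and 0.966 for Ryr1, and in BAT it was 0.986, 0.957 and 0.978. For Atp2a2 it was 0.282 and 0.585. The 6 points of a depot share 1 normalisation, and in iWAT the range is set by WT 3 and the first library of each genotype. All 16 fast-fibre markers were lower in MCK-Musclin iWAT in the mean, with a median log2 fold change of -1.99 against 0.06 over all genes tested, and none passed the cutoff. Myh4 and Ckm were at 0 in WT 1, and Ckm also in MCK-Musclin 1. Per 1000 FPKM of the fast-fibre list, Casq1 was 4.803, 7.579 and 8.16 in WT and 10.9, 10.26 and 9.082 in MCK-Musclin, and Atp2a1 0.8242, 36.43 and 26.97 in WT and 0.8647, 20.33 and 21.33 in MCK-Musclin. On this scale Casq1 was higher in every MCK-Musclin library, opposite to its FPKM, while Atp2a1 overlapped. In the first library of each genotype the ratios rest on little muscle RNA. The list summed to 50.4 FPKM in WT 1 and 50.2 FPKM in MCK-Musclin 1, with 3 and 2 of the 16 markers at 0. Casq1 was at 0.242 and 0.547 FPKM there, so a genotype difference per unit of muscle RNA is not established. The denominator of 34 markers contains the fast-fibre list and therefore gives lower ratios. With it the Casq1 groups overlapped, between 0.9316 and 7.281 in WT and between 1.728 and 4.411 in MCK-Musclin. The slow-fibre part of this denominator is not specific to muscle, at 304 FPKM in small intestine and 168 FPKM in TA muscle. In iWAT 5 of its 8 genes were listed. They made up 179 of 260 FPKM in WT 1 and 236 of 317 FPKM in MCK-Musclin 1, so the wider denominator does not measure muscle RNA there. Brown and beige fat markers were also lower in MCK-Musclin iWAT (9 of 9 tested in the mean, 6 at the cutoff). Of all genes tested in iWAT, 0.902% were called lower. Ucp1 was at 130.2, 248 and 346 FPKM in WT and at 173, 31.6 and 2.91 FPKM in MCK-Musclin. The part of cell make-up in any of these differences was not tested. In bulk tissue, fewer cells of a type and less RNA per cell cannot be told apart.

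Atp2a2 varied least of the 3 pumps in iWAT. It was at 19.9, 25.4 and 26.5 FPKM in WT and at 28.9, 18.7 and 19.8 FPKM in MCK-Musclin, a 1.545-fold range. The log2 fold change was -0.10 (SE 0.186; limma adjusted p = 0.819), and its sign turned to 0.10 when libraries were centred on adipocyte markers and to 0.01 without MCK-Musclin 2. Its share of summed SERCA FPKM ran from 14.89% in WT 3 to 60.19% in MCK-Musclin 1, as the Atp2a1 share ran from 0.09047% to 77.27%.

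**Figure D4:**
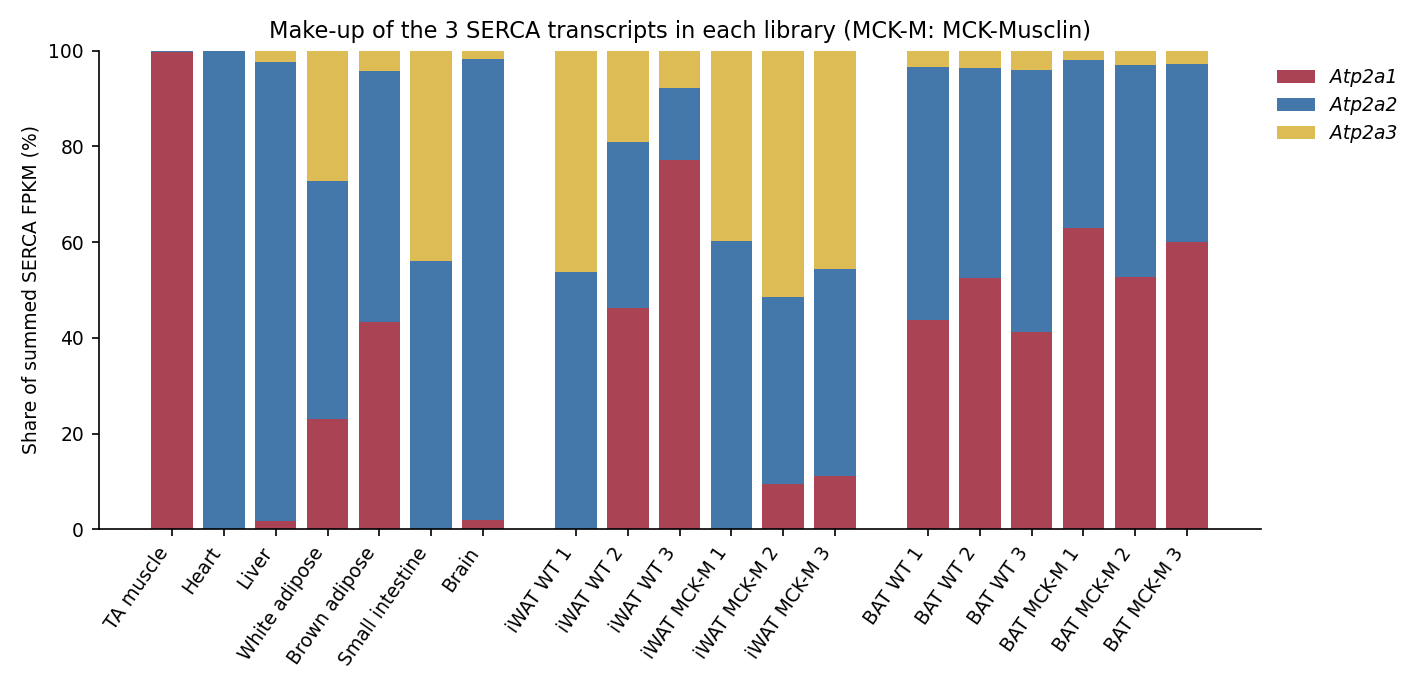
Share of summed SERCA FPKM (%) taken by Atp2a1 (red), Atp2a2 (blue) and Atp2a3 (yellow) in each of the 19 libraries, as stacked bars. Atp2a1 fills TA muscle, Atp2a2 fills heart, and within iWAT the Atp2a1 share runs from below 1% to 77.27%.

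Atp2a3 was the member with a separated difference in iWAT. It was at 17.1, 13.9 and 14.0 FPKM in WT and at 19.1, 24.7 and 20.8 FPKM in MCK-Musclin, higher in all 3. The means were 15.0 ± 1.85 FPKM (SD, n = 3) and 1.434 times that. The log2 fold change was 0.49 (SE 0.132; limma p = 0.00696, adjusted p = 0.171; exact permutation p = 0.1). This was just inside the log2 cutoff of 0.5 for iWAT, so no member passed there. Of 5 members tested in iWAT, Atp2a3 was the 1 with an unadjusted p below 0.05. With a pseudocount of 0.1 the log2 fold change was 0.52 and the gene passed, and it also passed without WT 1 (0.58), MCK-Musclin 1 (0.57) or MCK-Musclin 3 (0.51). Among all 12197 genes tested, 5.04% were called higher and 0.902% lower, and the groups did not overlap with MCK-Musclin higher in 17.9% and lower in 5.44%.

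Lymphocyte markers moved with Atp2a3 in iWAT. All 10 B and T cell markers were higher in MCK-Musclin iWAT, 9 of them at the cutoff, where 5.04% of all genes tested were called higher. The summed FPKM of these markers was 417, 241 and 263 in WT and 476, 608 and 579 in MCK-Musclin. Over the 6 libraries the Pearson correlation of Atp2a3 with this sum, both on the log2 scale, was 0.965. The pan-B marker Cd79a was at 135, 81.7 and 66.9 FPKM in WT and at 151, 204 and 224 FPKM in MCK-Musclin. In BAT the same markers summed to between 2.05 and 4.69 FPKM, and Atp2a3 was between 2.22 and 2.83 FPKM. The same correlation was -0.456 in BAT. Among the 7 tissues the marker sum was highest in small intestine, at 92.8 FPKM, and next in white adipose, at 25.6 FPKM, the 2 tissues highest in Atp2a3. The other tissues did not keep this order: in liver the marker sum was 5.55 FPKM, above brown adipose at 5.21 FPKM. Atp2a3 was lowest in liver, at 0.469 FPKM, and was at 2.85 FPKM in brown adipose. The part of these cells in the level of Atp2a3 was not tested.

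The remaining members were low in iWAT and their groups overlapped. Pln was at 0.217, 0.975 and 0.685 FPKM in WT and at 0.325, 0.588 and 0.499 FPKM in MCK-Musclin. Ryr2, the channel of the known beige-fat cycle, was at 0.125, 0.0973 and 0.0488 FPKM in WT and at 0.0813, 0.0816 and 0.0830 FPKM in MCK-Musclin. Ryr3 was between 0.110 and 0.272 FPKM and Casq2 between 0.324 and 1.31 FPKM.

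IP3 receptors outweighed ryanodine receptors in every adipose library. Itpr1 was at 29.3 ± 0.717 FPKM in WT iWAT and at 41.1 ± 4.17 FPKM in WT BAT (SD, n = 3), against 0.0903 ± 0.0385 and 0.120 ± 0.0598 FPKM for Ryr2. The ratio of Itpr1 to Ryr2 ranged from 241.4 to 593.5 in iWAT and from 138.7 to 596.9 in BAT. The 3 IP3 receptors together were between 5.275 and 110.5 times the ryanodine receptors in iWAT and between 10.5 and 32.13 times in BAT, the lowest ratio in each depot being that of the library with the most muscle marker RNA. These levels were not tested between depots, whose tables were normalised separately.

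Among the 49 further calcium genes, BAT had 34 tested, 6 of them higher at the cutoff and none lower (8 of 10 tested SERCA regulators and 8 of 10 tested triad genes were higher in the mean). Over all genes tested in BAT, 1.85% were called higher and 2.15% lower. The 6 calcium genes were the triad genes Trdn, Jsrp1 and Cacna1s and the store genes Hrc, Srl and Tmem38a, with limma adjusted p between 0.929 and 0.968. Trdn was at 11.5, 17.9 and 11.7 FPKM in WT and at 70.4, 20.7 and 21.2 FPKM in MCK-Musclin (log2 fold change 1.17). MCK-Musclin 1 was more than 3 times any other library. Srl (sarcalumenin, a calcium-binding protein of the store) was at 14.4, 14.6 and 10.9 FPKM in WT and at 18.4, 20.0 and 18.5 FPKM in MCK-Musclin, with tight groups that did not overlap (log2 fold change 0.49, SE 0.129). Groups lay apart with MCK-Musclin higher in 4.38% of all genes tested in BAT. The IP3 receptor and store-operated entry list and the plasma membrane and mitochondrial list had no gene at the cutoff in BAT. Counting all 4 lists, 7 genes had an unadjusted p below 0.05. The number at the cutoff was 3 without WT 3 and 3 without MCK-Musclin 1, and 10 without WT 2 and 12 without MCK-Musclin 2.

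In iWAT, 39 of the 49 were tested, 2 were higher at the cutoff and 3 lower, with a median log2 fold change of -0.11 against 0.06 over all genes tested. The count of 2 higher is close to the 5.04% called higher over all genes tested, so it is no result about the lists, and 0.902% were called lower. Camk2g, a calcium-dependent kinase, was at 11.1, 13.6 and 9.63 FPKM in WT and at 23.7, 27.5 and 25.1 FPKM in MCK-Musclin. The groups were far apart (log2 fold change 1.10, SE 0.135; limma adjusted p = 0.137), and this was the smallest adjusted p among the lists. Orai2, a store-operated channel, was at 6.58, 5.74 and 4.51 FPKM in WT and at 8.17, 8.93 and 9.22 FPKM in MCK-Musclin (log2 fold change 0.57). Over the 6 iWAT libraries the Pearson correlation with the B and T cell marker sum was 0.82 for Camk2g and 0.929 for Orai2. The marker sum, like these 2 genes, was higher in every MCK-Musclin iWAT library. In BAT the correlations were 0.00127 for Camk2g and 0.121 for Orai2. Fkbp1a, a protein that binds ryanodine receptors, was at 43.5, 50.7 and 31.3 FPKM in WT and at 25.7, 32.0 and 26.5 FPKM in MCK-Musclin (log2 fold change -0.54), with MCK-Musclin 2 just above WT 3. Its partner gene Fkbp1b was higher in all 3, at 0.886, 1.07 and 1.34 FPKM in WT and 2.09, 1.85 and 1.81 FPKM in MCK-Musclin, with a log2 fold change of 0.48 that is inside the cutoff. The muscle genes Srl (log2 fold change -1.34) and Stac3 (-1.07) were the other 2 lower genes, with overlapping groups. The number at the cutoff was 12 without WT 1, 2 without WT 2, 3 without WT 3 and 2 without MCK-Musclin 1.

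**Figure D5:**
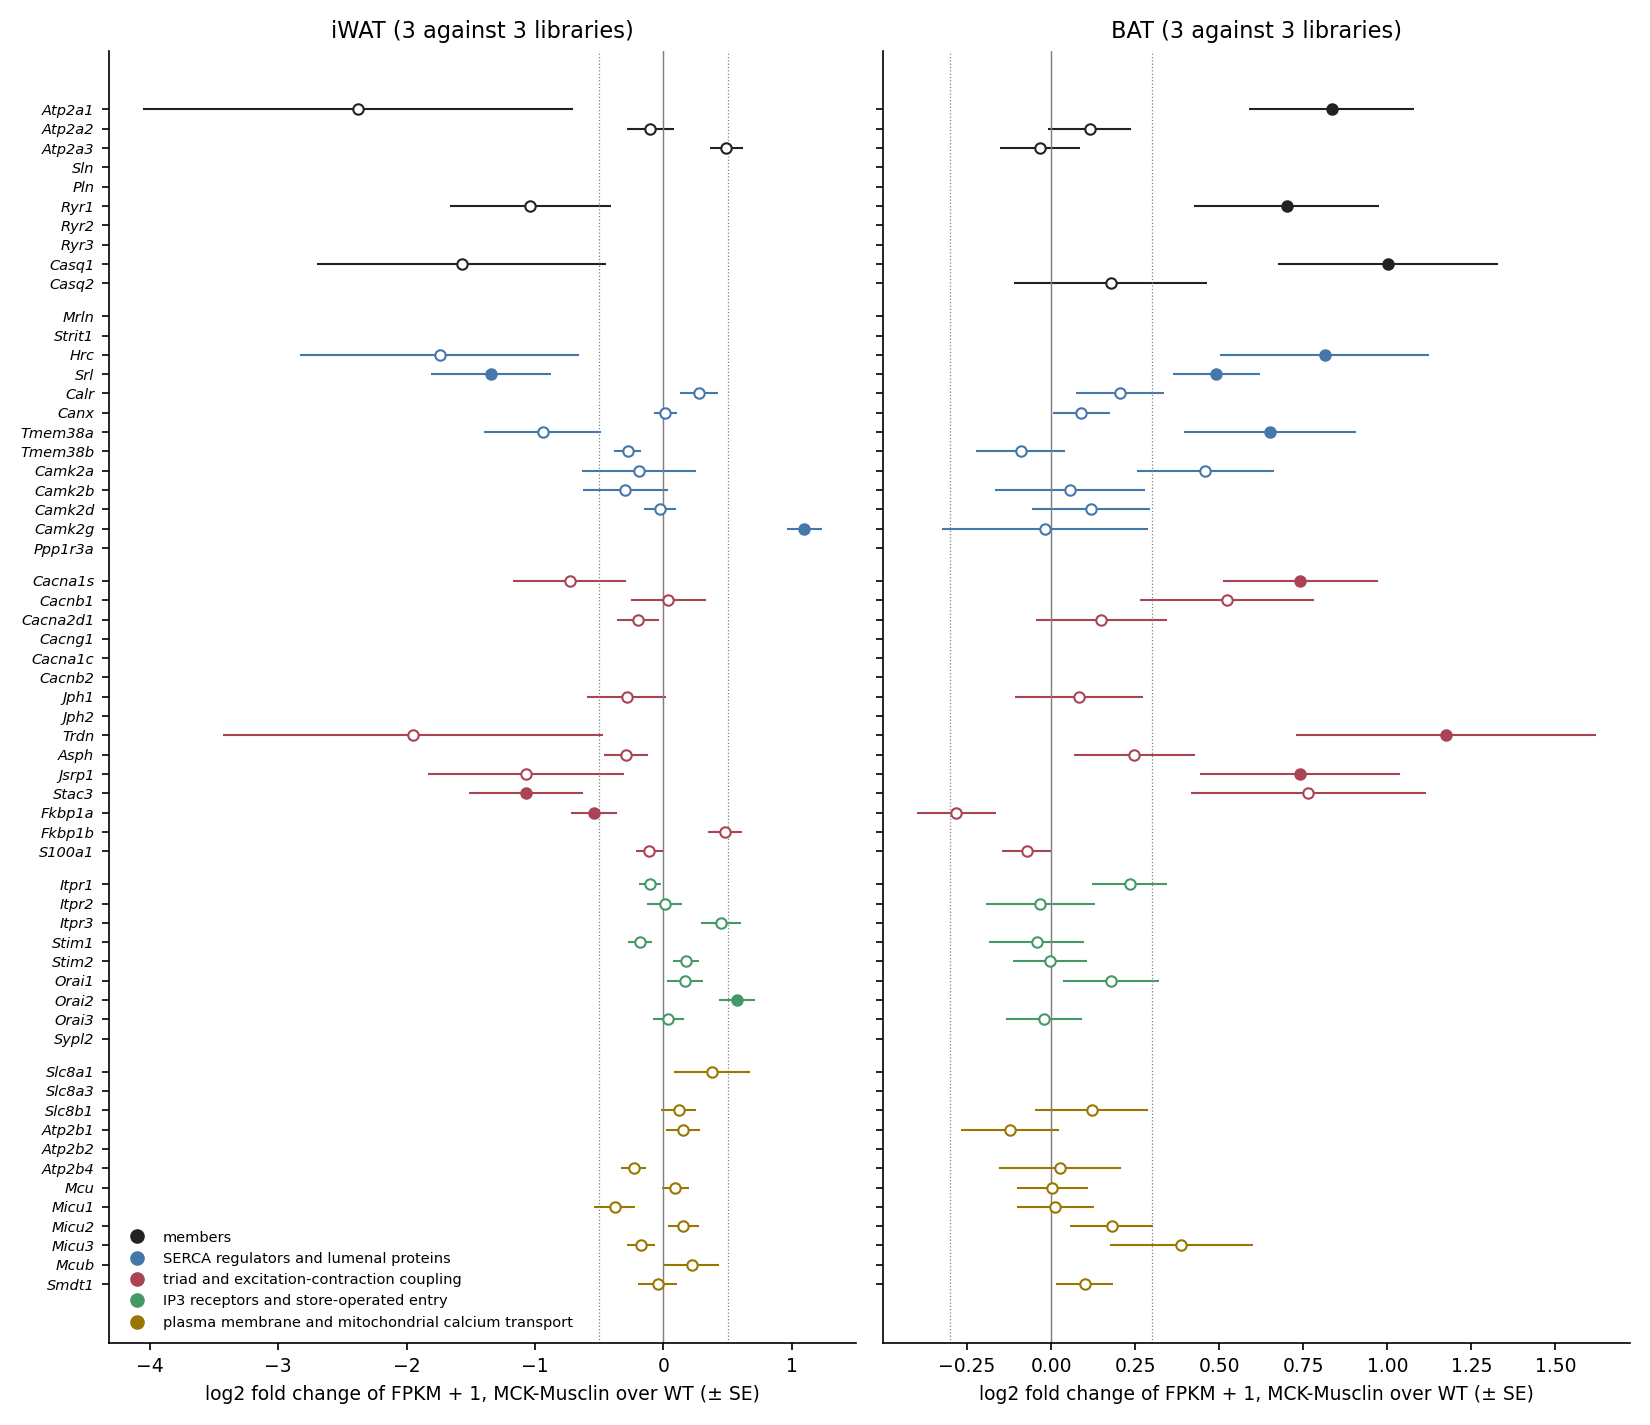
log2 fold change of FPKM + 1, MCK-Musclin over WT, with its standard error, for the 10 members and the 49 further genes in iWAT (left) and BAT (right); filled points passed the cutoff (dotted lines), genes below the filter have no point, and the horizontal scales of the panels differ. In BAT the 9 filled points all lie to the right of 0, and they belong to the members, the SERCA regulators and the triad list.

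Several muscle-type genes of these lists differed in opposite directions in the 2 depots: Atp2a1, Casq1, Ryr1, Trdn, Hrc, Srl and Tmem38a were each lower in the mean in MCK-Musclin iWAT and higher in MCK-Musclin BAT. The fast-fibre markers had the same pattern, with 16 of 16 lower in iWAT and 16 of 16 higher in BAT. The difference between depots was not tested, since the tables were normalised separately and the iWAT groups overlapped.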

How the data were processed

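The 19 libraries were made from poly(A) mRNA. Per the study's methods, the authors filtered reads with fastp and Bowtie2, aligned them without strand to mm10 (GRCm38) with HISAT2 and computed FPKM with StringTie; the submitters' processing notes list Bowtie2 2.4.1, HISAT2 2.1.0 and Cuffdiff 2.1.137. The deposited values are FPKM, with separate tables for the 7 tissues, BAT and iWAT, and no counts. The 287 repeated lines in 2 of the tables were used once. The iWAT table also holds the authors' own fold changes, p-values and group means, which were not used. Groups came from the labels.

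FPKM were tested within each depot on log2(FPKM + 1) by limma 3.58.1 (R 4.3.3; trended eBayes), with Benjamini-Hochberg adjustment, over genes with a mean of at least 1 FPKM, and single genes by two-sided exact permutation. The cutoff was the study's: p below 0.05 and a log2 fold change beyond 0.5 (iWAT) or 0.3 (BAT). The test was tested on simulated data with independent noise for each gene. Those data hold no spread shared between genes, such as that of muscle RNA among libraries, so they do not show how the test behaves under it. All 10 members are named, and other genes come from 4 calcium lists, 13 marker lists and the 3 nearest genes per member. The members and lists were chosen with earlier results of these data known. FPKM hold no counts, so depth and counting error are unknown.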

Additional observations from a re-analysis of the deposited data

How the results depend on the processing

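Alternatives were another pseudocount (0.1 or 0.01), no filter or a mean of at least 5 FPKM, TPM, median-ratio scaling, centring on adipocyte markers, eBayes without trend, another fold cutoff, a replicate block and leaving out each library. Beyond the changes given here and in the report, the members tested in a depot (5 in iWAT, 6 in BAT) kept their direction and their side of the cutoff wherever an alternative kept them above the filter. Members below the filter were fitted only without it, so their stability was not examined.

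In iWAT the number of members at the cutoff, 0, became 1 with either pseudocount, with adipocyte centring and with a log2 cutoff of 0.3 (Atp2a3 each time), and 1 with the replicate block (Atp2a1), and ran from 0 to 4 without single libraries. That of the calcium lists, 5, became 3 with the stricter filter, 8 with the replicate block and 8 with a log2 cutoff of 0.3, and ran from 2 to 12 without single libraries. That of all genes, 725, became 1876 with centring and 1683 at 0.3, and ran from 619 to 1057. In BAT the member count of 3 ran from 1 to 3 without single libraries and was 2 with no filter, the stricter filter or the replicate block. That of the lists, 6, became 3 with the stricter filter and 10 with centring, and ran from 3 to 12. That of all genes, 436, became 216 with the stricter filter and 171 at a log2 cutoff of 0.5, and ran from 407 to 581.

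The log2 fold changes whose sign turned were those of Atp2a2 in iWAT (0.102 with centring, and from -0.289 without MCK-Musclin 1 to 0.0114 without MCK-Musclin 2), Atp2a3 in BAT (0.0906 with centring, and from -0.0963 without WT 1 to 0.0277 without WT 2) and Casq2 in BAT (from -0.0258 without WT 3 to 0.418 without MCK-Musclin 3). None of these passed the cutoff. The cause was not tested.

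Centring moved the median log2 fold change of all genes to 0.265 in iWAT and 0.116 in BAT. The share of calls that were higher was 84.8% in iWAT and 46.3% in BAT in the main test, 98.5% and 88.5% with centring, 69.9% and 50.9% with median-ratio scaling, and 74.6% and 56.6% as TPM.

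Libraries with the same replicate number had correlated deviations of 0.2347, 0.0615 and 0.1072 in iWAT and -0.0951, -0.0046 and 0.0094 in BAT. Since not every pair was over 0.1, the numbers were not taken to pair the libraries. In iWAT 5 of 6 libraries nevertheless correlated best with their own number, a hint from the data and not from the design, against 0 of 6 in BAT. With the replicate block Atp2a1 passed the cutoff in iWAT (limma adjusted p = 0.265) and Ryr1 missed it in BAT (limma adjusted p = 0.967).

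The tissue with the highest level of each of the 10 members stayed the same as TPM and with median-ratio scaling. Muscle ratios on the fast-fibre list alone had medians of 20.8 for Atp2a1, 8.62 for Casq1 and 2.84 for Ryr1 in iWAT, and 43.4, 11.6 and 2.86 in BAT.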

Other observations

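Among the other marker lists, the brown and beige fat list was lower in iWAT of MCK-Musclin mice in 9 of 9 tested genes, 6 of them at the cutoff (median log2 fold change -1.29), whereas in BAT 5 of 10 were higher and 1 passed, on the low side. The general adipocyte list was lower in 10 of 10 genes in iWAT and in 9 of 10 in BAT, with none at the cutoff. Slow-fibre genes were higher in BAT in 8 of 8, none at the cutoff, and in iWAT 3 of 4 tested were higher. Genes of any skeletal fibre were lower in 7 of 7 in iWAT, none at the cutoff, and higher in 9 of 9 in BAT, 3 at the cutoff. Of 7 cardiac genes, 2 were listed in iWAT and both passed on the high side, and none was tested in BAT. These 2 summed to between 3.93 and 4.46 FPKM in WT iWAT and between 6.23 and 8.25 FPKM in MCK-Musclin iWAT. The cardiac list summed to 32867 FPKM in heart. Over all genes tested in iWAT, 61.3% were higher in the mean, 5.04% were called higher and 0.902% lower. In BAT these shares were 47.7%, 1.85% and 2.15%. Smooth muscle, platelet, endothelial, neuronal, hepatocyte and enterocyte lists had no gene at the cutoff in either depot.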
